A study of Homo sapiens with 2 samples.

Results

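The glycolysis and hypoxia response genes are 38 genes that carry glucose into the cell, break it down to pyruvate and lactate, or belong to the cell's answer to low oxygen. They were taken by gene name from a table of transcripts, and all 38 of the 49900 gene names with an isoform in the table were found. RNA came from WI-38, an established human cell line of diploid lung fibroblasts, which stops dividing after a limited number of doublings (replicative senescence). One culture was young, at population doubling level (PDL) 20, and the other senescent, at PDL 52. Each group is 1 library of total RNA with no further treatment in the labels, whose cDNA was amplified with a kit (NuGEN Ovation RNA-Seq System V2). Nothing in the labels says that either was grown more than once. With 1 library a group there is no replicate, no spread between cultures and no test, so every difference below is one between 2 libraries.

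A gene's level is the sum of FPKM over its isoforms, where FPKM counts sequenced fragments per kilobase of transcript and scaled to the fragments of the library. Paired values give the young library first and the senescent one second. Log2 ratios compare the senescent with the young level, each with 1 FPKM added as a pseudocount, so low genes appear to differ less than they do. A plain fold is the ratio of FPKM without it. A gene was measured when it reached 1 FPKM in at least 1 library, and it was called higher or lower at 2-fold on the log2 scale. Isoforms counted at 1 FPKM or more were chosen in the same way. A gene or isoform that reached 1 FPKM in only 1 library was higher there by this choice. The cells matched their label as fibroblasts: all 11 fibroblast markers were measured, with a summed level of 10782 and 6071 FPKM. Markers of other cell types were low, with 3 of 6 epithelial genes measured (16.8 and 9.90 FPKM summed), 1 of 5 endothelial genes (18.9 and 8.70) and 1 of 6 blood genes (14.8 and 22.2). The endothelial gene PECAM1 had no isoform value, so its level is not known. CDH5, SFTPC and CD3E, which define endothelium, alveolar epithelium and T cells, were listed at 0 in both libraries. The ones that were measured were KRT8 (1.95 and 1.49 FPKM), KRT18 (2.84 and 6.75), KRT19 (11.5 and 1.37), TEK (18.8 and 8.16) and CD68 (14.3 and 21.1). The summed level of 4 proliferation genes was 137 FPKM (young) and 12.1 FPKM (senescent). Of 2 genes of senescence arrest, CDKN1A was at 306 and 862 FPKM and CDKN2A nearly equal at 27.3 and 30.4 FPKM. The part of the cell cycle in any difference below was not tested. In such bulk RNA, fewer cells of a type and less RNA per cell cannot be told apart. Low values move in steps of 1 fragment, and these put the depth at 15900000 fragments (young) and 14820000 (senescent).

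Glycolysis splits glucose into pyruvate in the cytosol, with a gain of ATP, and lactate dehydrogenase turns pyruvate into lactate so that the pathway can go on without oxygen. Several steps are served by paralogs with different regulation, such as the hexokinases and phosphofructokinases. When oxygen falls, prolyl hydroxylases of the EGLN family no longer mark the factors HIF1A and EPAS1 for destruction. These factors then pair with ARNT and bind a short DNA core next to many glycolytic and hypoxia genes. HIF1A and EPAS1 are mainly controlled at the protein level, which RNA does not show.

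Of the 38 members, 35 were measured. PDK3 (0.185 and 0.351 FPKM), EGLN3 (0 and 0.0691) and CA9 (0.0422 and 0.187) were not. In the senescent library 6 members were at least 2-fold higher, which is 17.1% of those measured, where 6.65% of all 17965 measured genes and 6.48% of the 12307 protein-coding ones were. Another 2 members, or 5.71%, were at least 2-fold lower, where 8.58% of all measured genes and 8.62% of the coding ones were. The 6 higher members were NDRG1, HK2, PDK4, SLC2A1, HK1 and SLC16A3, and the 2 lower ones CA12 and PFKP. The other 27 lay within 2-fold. The median log2 ratio of the measured members was 0.36, against -0.10 over all measured genes and -0.06 over the coding ones. It was above 0 in 26 members (74.3%) and below 0 in 9, against 43.3% above 0 of all measured genes and 45.8% of the coding ones. The members nearest the threshold were SLC16A3 just inside it at 1.03, and ALDOC at -0.99 and ALDOA at 0.88 just outside. So the higher members were few, and most of the pathway differed by less than 2-fold. The members, and the gene lists set beside them below, were chosen with earlier results of these data known. Their shares are therefore not independent evidence when set beside those of all genes.

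**Figure D1:**
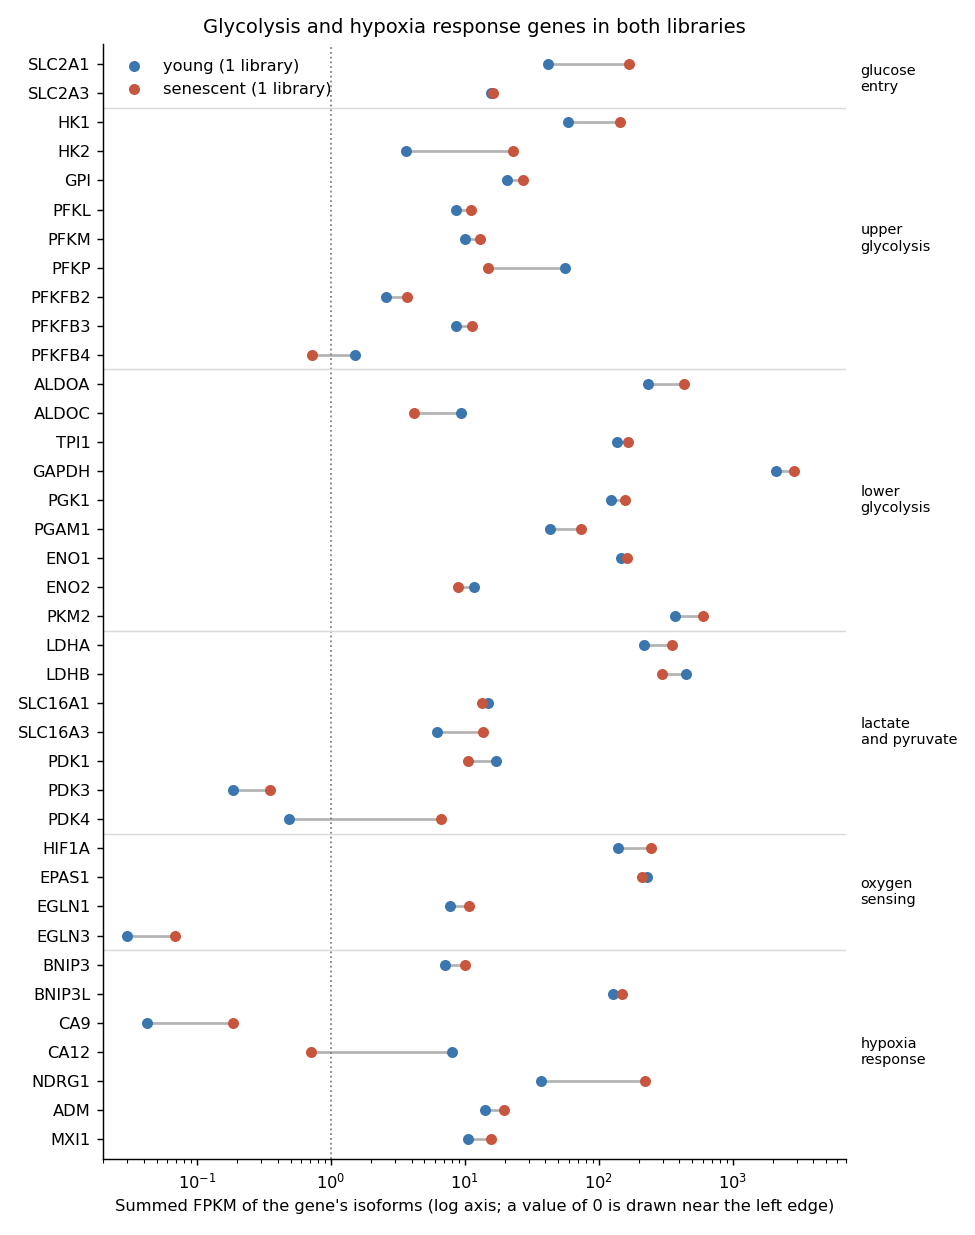
Summed FPKM of each of the 38 members in the young (blue) and the senescent (red) library, on a log axis, by role; each point is 1 library and the dotted line marks 1 FPKM. SLC2A1, HK1, HK2, PDK4, SLC16A3 and NDRG1 lie further right in the senescent library by at least 2-fold, PFKP and CA12 further left.

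The authors also marked single transcripts as different, by a p-value and q-value per transcript in a comparison of the same 2 libraries. In the authors' deposited table, 21 of the 220 member transcripts that could be tested were marked higher in the old library, which is 9.55%, where 1.66% of all 72902 such transcripts were. The authors' deposited table marks 3 member transcripts lower (1.36%), where 2.03% of all such transcripts were. These marks fell in 11 members: NDRG1, SLC2A1, HK2, PDK4, PKM2, ADM, BNIP3L, EPAS1 and PGK1 with higher transcripts, and CA12, PFKP and PKM2 with lower ones. PKM2 was the only member of the authors' deposited table with marks in both directions. Of the 21 higher marks, 6 were in NDRG1 and 5 in SLC2A1, and transcripts of 1 gene are not independent of each other. The members were also chosen with earlier results of these data known. The marks rest on the same libraries as the levels and are not a replicate of them.

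Glucose enters fibroblasts through facilitative transporters. SLC2A1, which encodes GLUT1, the main basal glucose transporter (hg19 chr1:43391519-43424539), stood at 41.8 FPKM in the young and 168 FPKM in the senescent library. This is 4.01-fold higher, a log2 ratio of 1.98. All 7 of its isoforms at 1 FPKM or more were higher, 5 of them by 2-fold or more. Among these, SLC2A1-001 of 2851 bases was at 9.66 and 37.1 FPKM (q = 0.0336 in the authors' deposited table). SLC2A1-006 (0.639 and 1.41 FPKM) and an assembled isoform of 2231 bases (0.395 and 1.08 FPKM) reached 1 FPKM only in the senescent library. SLC2A3, which encodes the high-affinity transporter GLUT3, was at 15.7 and 16.2 FPKM, a log2 ratio of 0.04. Within this pair the difference lay in SLC2A1, which held 72.6% of the FPKM of the pair when young and 91.2% when senescent. Of 11 measured genes on a list of other sugar and monocarboxylate transporters, 2 were higher and none lower, with a median log2 ratio of 0.48. Over all measured genes 6.65% were higher and 8.58% lower. The higher transporters were SLC2A8, an intracellular hexose transporter, at 1.34 and 4.46 FPKM, and SLC16A6 at 0.0943 and 5.26 FPKM. BSG, the chaperone that brings monocarboxylate transporters to the membrane, had the highest level of that list at 122 and 163 FPKM.

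Hexokinases trap glucose in the cell as glucose-6-phosphate. HK2, the inducible hexokinase that binds mitochondria (hg19 chr2:75061108-75120486), was at 3.66 FPKM in the young and 22.8 FPKM in the senescent library, 6.22-fold higher. Both of its isoforms at 1 FPKM or more were higher, though HK2-001 reached that level only in the senescent library. HK2-002, of 5278 bases, was at 3.62 and 19.0 FPKM (q = 0.00426 in the authors' deposited table), and HK2-001 was listed at 0 and 3.55 FPKM (q = 0.031 there). HK1, the hexokinase of most tissues, was at 58.6 and 143 FPKM, a log2 ratio of 1.27. Most of that sum came from 2 short processed transcripts: HK1-008 of 314 bases at 25.0 and 58.5 FPKM, and HK1-009 of 692 bases at 17.0 and 47.0 FPKM. Coding transcripts held 23.5% and 20.4% of the HK1 level, at 13.8 and 29.1 FPKM, a log2 ratio of 1.03. On coding transcripts alone, HK2 held 21.0% of hexokinase FPKM when young and 43.6% when senescent, against 5.88% and 13.7% on all isoforms. HK1 and HK2 together were at 62.2 and 166 FPKM, with HK1 in the lead in both libraries.

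Phosphofructokinase commits the sugar to glycolysis and is built from the products of 3 genes. PFKP, the platelet-type subunit (hg19 chr10:3109712-3179904), was the leading one of the young library, at 56.3 FPKM in the young and 14.8 FPKM in the senescent library. This is 3.80-fold lower. PFKP-003, its leading isoform of 2645 bases, was at 31.6 and 5.68 FPKM (q = 0.00479 in the authors' deposited table). Of 7 PFKP isoforms at 1 FPKM or more, 6 were lower and 1 was higher. PFKP-005 (0 and 1.29 FPKM) reached 1 FPKM only in the senescent library and PFKP-009 (1.28 and 0.304 FPKM) only in the young one. The liver-type PFKL (8.57 and 11.1 FPKM) and the muscle-type PFKM (9.95 and 13.0 FPKM) were within 2-fold. The 3 subunits summed to 74.8 and 38.9 FPKM, and the PFKP share of that sum was 75.2% and 38.1%. Its lead in the senescent library depended on the transcripts used: on coding transcripts PFKP was at 12.5 and PFKM at 13.0 FPKM there, and by the highest isoform PFKM held 51.9% and PFKP 28.1%. The isoforms of PFKL went in opposite directions: the full-length PFKL-001 was at 5.17 and 4.03 FPKM, and the retained-intron PFKL-006 at 2.21 and 4.01 FPKM. On coding transcripts PFKL had a log2 ratio of -0.06.

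PFKFB enzymes make and break fructose-2,6-bisphosphate, which activates phosphofructokinase. PFKFB3, the form with the strongest kinase activity, was at 8.64 and 11.4 FPKM, and PFKFB2 at 2.60 and 3.68 FPKM. PFKFB4 was low, at 1.51 and 0.728 FPKM. None of these passed 2-fold. PFKFB3 also had 9 transcripts assembled within its introns, which summed to 24.4 and 13.0 FPKM. GPI, which interconverts glucose-6-phosphate and fructose-6-phosphate, was at 20.8 and 27.0 FPKM.

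The steps from aldolase to pyruvate had the highest summed level, 3179 and 4454 FPKM. All 9 genes lay within 2-fold, 7 of them above 0, with a median log2 ratio of 0.34. GAPDH was the highest member, at 2105 and 2847 FPKM, and alone held 44.9% and 44.1% of the FPKM of all members. ALDOA, the main aldolase, was at 234 and 430.0 FPKM, and PGAM1, a phosphoglycerate mutase, at 42.9 and 73.7 FPKM. TPI1 (136 and 166 FPKM), PGK1 (124 and 158 FPKM) and ENO1 (147 and 162 FPKM) were nearer to equal. The brain-type paralogs were the ones below 0: ALDOC at 9.34 and 4.21 FPKM, a log2 ratio of -0.99, and ENO2 at 11.7 and 8.93 FPKM. All 8 ENO1 isoforms carry the status FAIL in the file, so no ENO1 transcript has a usable p-value. One of them, an assembled isoform of 1746 bases, was at 26.7 and 0.593 FPKM, while the annotated ENO1-001 was at 68.2 and 104 FPKM.

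Several of these genes have near-identical processed copies in the genome, and whether reads were split between gene and copies was not tested. The 57 pseudogenes of GAPDH summed to 816 and 1096 FPKM, or 27.9% and 27.8% of the FPKM of gene and copies. Pseudogenes of LDHA held 18.6% and 19.1%, those of TPI1 17.5% and 18.1%, and those of BNIP3 31.5% and 30.1%. Adding the copies left the GAPDH log2 ratio at 0.43 and that of LDHA at 0.71. The shares of the copies were nearly the same in both libraries.

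PKM2 is the file's name for the pyruvate kinase gene PKM (hg19 chr15:72491370-72524164). The gene makes the M1 or the M2 form of the enzyme by taking up one of a pair of exons that exclude each other, and the M2 form is the less active and more regulated one. The exons are shown because they set the M1 apart from the M2 isoforms. Both were read from GENCODE v29 transcripts of the gene (build GRCh38), 5′ to 3′ as in the RNA but written with T, and capitals mark the positions at which they differ.
M1 exon (chr15:72203022-72203188, minus strand): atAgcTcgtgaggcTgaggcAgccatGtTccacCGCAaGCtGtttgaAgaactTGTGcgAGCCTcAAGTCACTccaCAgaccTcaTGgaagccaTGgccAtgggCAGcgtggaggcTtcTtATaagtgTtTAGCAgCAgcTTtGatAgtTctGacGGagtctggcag
M2 exon (chr15:72202454-72202620, minus strand): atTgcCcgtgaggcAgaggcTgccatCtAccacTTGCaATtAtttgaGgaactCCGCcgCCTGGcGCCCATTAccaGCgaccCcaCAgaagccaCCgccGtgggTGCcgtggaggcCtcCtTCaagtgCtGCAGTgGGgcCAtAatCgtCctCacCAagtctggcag
Each exon is 167 bases long. They differ at 62 positions and share 105, an identity of 62.9% without gaps.

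The whole gene was at 368 FPKM in the young and 603 FPKM in the senescent library, a log2 ratio of 0.71. The 3 annotated isoforms with the M2 exon (PKM2-004, PKM2-203 and PKM2-205) summed to 146 and 278 FPKM. The only isoform known here to hold the M1 exon, the annotated PKM2-201 of 2674 bases, was at 3.76 and 3.33 FPKM. So among isoforms whose exon is known, the M2 form held nearly all of the level in both libraries. The exon of the other 6 isoforms, which held 59.3% and 53.4% of the gene, was not determined here. Among them are the 4 assembled isoforms, all nearest to PKM2-201, with 47.9% and 19.8% of the gene. The share of the M1 form in the whole gene is therefore not known.

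Within the gene, isoforms differed in opposite directions. PKM2-204, of 2083 bases, was at 42.2 and 203 FPKM (q = 0.00282 in the authors' deposited table) and went from 11.5% to 33.6% of the gene. PKM2-203, of 2302 bases and with the M2 exon, was at 44.6 and 139 FPKM (q = 0.0661 there), from 12.1% to 23.1%. PKM2-004, of 2458 bases, was at 70.7 and 117 FPKM with a share of 19.2% and 19.5%. Among annotated isoforms alone that share was 36.8% and 24.3%. The opposite difference was in an isoform assembled from the reads, of 2018 bases and nearest to PKM2-201, at 80.7 and 1.86 FPKM (q = 3.99e-11 in the authors' deposited table). It was the leading isoform of the young library, with 21.9% of the gene, and held 0.308% in the senescent one. Another assembled isoform, of 1088 bases, was at 79.1 and 97.3 FPKM, and PKM2-205 at 30.7 and 20.8 FPKM. The 4 assembled isoforms together went from 47.9% to 19.8% of the gene and the 6 annotated ones from 52.1% to 80.2%. On annotated isoforms alone the log2 ratio of PKM2 was 1.33, so the gene passed 2-fold when assembled isoforms were left out.

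**Figure D2:**
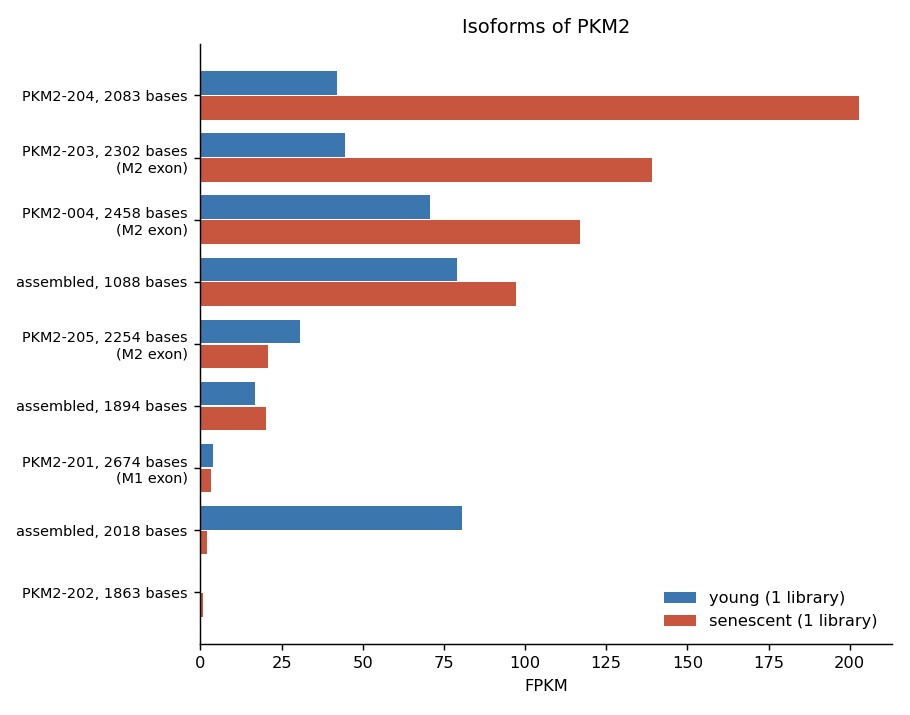
FPKM of the PKM2 isoforms in the young (blue) and senescent (red) library, 1 library each, with the exon where known and isoforms under 0.5 FPKM in both left out. PKM2-204 and PKM2-203 are longer in red, and the assembled isoform of 2018 bases stands at 80.7 FPKM in the young and 1.86 FPKM in the senescent library.

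Lactate dehydrogenase is a tetramer of LDHA and LDHB subunits, of which LDHA favours the making of lactate. LDHA was at 217 and 352 FPKM, a log2 ratio of 0.70, and LDHB at 448 and 296 FPKM, a log2 ratio of -0.60. Neither passed 2-fold, and their sum was nearly equal, 665 and 649 FPKM. The LDHA share of the sum was 32.6% when young and 54.3% when senescent. That share was higher in the senescent library under all 6 other ways of choosing transcripts, but the leading gene was not the same in all of them. With transcripts of at least 1000 bases LDHA was at 95.7 and 120.2 FPKM and LDHB at 0.34 and 0.165 FPKM. LDHA thus held nearly all of the sum in both libraries, and its share could hardly differ there. On coding transcripts LDHA held 28.7% and 47.0%, so LDHB led in both libraries. The LDHB level came from short transcripts, LDHB-008 of 678 bases (259 and 172 FPKM) and LDHB-004 of 744 bases (168 and 110.4 FPKM). Short transcripts also gave much of the LDHA level, led by LDHA-019 of 582 bases (76.9 and 129 FPKM), a nonsense-mediated-decay transcript. Transcripts of at least 1000 bases held 44.1% and 34.1% of LDHA, with a log2 ratio of 0.33.

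Lactate leaves or enters the cell through monocarboxylate transporters. SLC16A3, the exporter MCT4 of glycolytic cells, was at 6.15 and 13.6 FPKM, 2.22-fold higher. SLC16A1, which encodes MCT1, was at 14.9 and 13.4 FPKM. SLC16A3 held 29.2% of the pair when young and 50.5% when senescent. These shares were 61.5% and 75.1% by the highest isoform, where SLC16A3 led in both libraries, and 49.5% and 64.8% with all rows of the gene names. The SLC16A3 call is close to the threshold: it was lost when the highest isoform alone was used (0.75) and when all rows of the gene name were summed (0.71). The second isoform, SLC16A3-202, was at 0.00265 and 2.58 FPKM, and the first, SLC16A3-201, at 6.15 and 11.1 FPKM.

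Pyruvate dehydrogenase kinases (PDKs) switch off the enzyme that sends pyruvate into the mitochondria. PDK4, the kinase known for its induction by fasting and fatty acids (hg19 chr7:95212811-95225828), was at 0.488 FPKM in the young and 6.60 FPKM in the senescent library, 13.5-fold higher in summed FPKM. This rested on about 4 and 142 fragments, and per depth the fragments were 38.1-fold higher (95% exact Clopper-Pearson interval of the fragment ratio 14.6 to 142, for counting error in estimated fragments only). Fragments are not corrected for transcript length as FPKM is, and PDK4-001, of 3576 bases, was listed at 0 when young. The interval is therefore not one for the 13.5-fold ratio of FPKM. The PDK4 isoforms above 1 FPKM reached it only in the senescent library, so the filter fixed their direction. PDK4-003, a retained-intron transcript, was at 0.253 and 3.43 FPKM (q = 0.0869 in the authors' deposited table). PDK4-001, the coding one, was listed at 0 and 2.21 FPKM (q = 0.0904 there). PDK1, a hypoxia target, was at 17.0 and 10.5 FPKM, a log2 ratio of -0.65, and all 5 of its isoforms at 1 FPKM or more were lower. PDK1-001 (1.10 and 0.845 FPKM) and PDK1-007 (1.23 and 0.719 FPKM) reached 1 FPKM only in the young library. The sum of PDK1, PDK3 and PDK4 was 17.7 and 17.5 FPKM, nearly equal, while PDK4 held 2.76% and 37.8% of it. With all rows of the gene names PDK4 held 1.23% and 19.3%. PDK2, from a list of mitochondrial pyruvate genes and no member, was above all of these at 24.3 and 71.6 FPKM.

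That list, chosen with earlier results of these data known, held 15 measured genes. Of these 5 were higher and 1 lower, with a median log2 ratio of 0.11. The shares over all measured genes were 6.65% higher and 8.58% lower. Besides PDK2, the higher genes were both subunits of the mitochondrial pyruvate carrier, BRP44 (14.9 and 47.2 FPKM) and BRP44L (7.70 and 18.2 FPKM). The malic enzyme ME1 (19.6 and 43.5 FPKM) and PDHX, a binding subunit of pyruvate dehydrogenase (22.9 and 49.5 FPKM), were higher too. PCK2, the mitochondrial enzyme that makes phosphoenolpyruvate, was lower at 8.91 and 2.46 FPKM. The catalytic subunits PDHA1 (60.2 and 59.9 FPKM) and PDHB (69.6 and 64.5 FPKM) were close to equal.

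**Figure D3:**
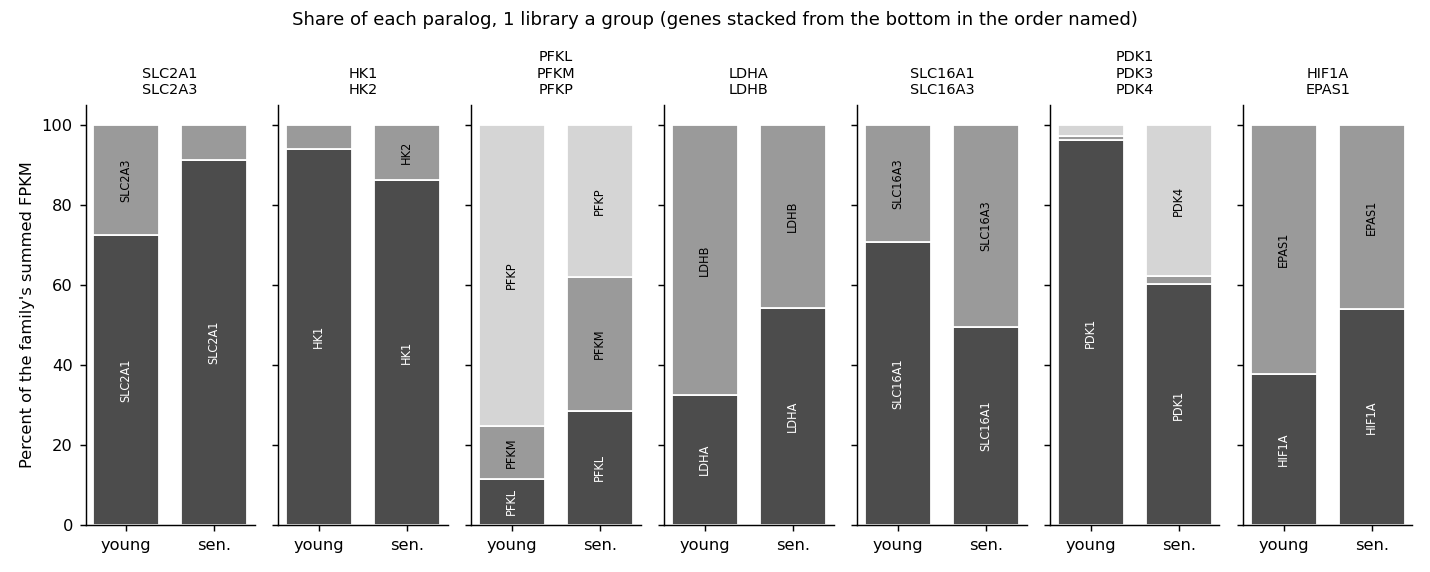
Share of each paralog in the summed FPKM of its family, in percent, in the young and the senescent library (1 library each). The share of PFKP is 75.2% when young and 38.1% when senescent, and those of LDHA, SLC16A3, PDK4 and HIF1A are larger in the senescent library.

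The measured genes of oxygen sensing, the factors HIF1A and EPAS1 and the hydroxylase EGLN1, were within 2-fold. HIF1A, the factor of acute hypoxia, was at 139 and 247 FPKM, a log2 ratio of 0.82, and 5 of its 6 isoforms at 1 FPKM or more were higher. HIF1A-002, at 0.971 and 1.63 FPKM, reached 1 FPKM only in the senescent library. HIF1A-201, its leading isoform of 3065 bases, was at 92.4 and 169 FPKM. EPAS1, which encodes HIF2A, was at 229.6 and 210.3 FPKM. Only 21.1% and 22.7% of the EPAS1 level came from coding transcripts, at 48.4 and 47.8 FPKM, and the rest from retained-intron and processed transcripts. On coding transcripts HIF1A led EPAS1 in both libraries, with 74.2% and 83.8% of their sum, whereas on all isoforms it went from 37.8% to 54.0%. Within EPAS1, the annotated coding EPAS1-001 of 5160 bases was at 35.4 and 20.9 FPKM, and an assembled form of 4974 bases at 3.76 and 21.1 FPKM (q = 0.00244 in the authors' deposited table). EGLN1, the main oxygen-sensing hydroxylase, was at 7.78 and 10.7 FPKM, most of it from EGLN1-002, a processed transcript.

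Of 15 other regulators of these factors, all measured, 1 was higher and none lower, with a median log2 ratio of -0.34. Over all measured genes 6.65% were higher and 8.58% lower, so the count of higher regulators was near that share. The higher one was CITED2, which competes with HIF1A for its coactivators, at 91.2 and 199 FPKM. TCEB2, a subunit of the ligase that destroys HIF1A, was at 92.1 and 140.0 FPKM.

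Among the hypoxia response genes, NDRG1 was the one called higher. At the pseudocount of 1 FPKM its log2 ratio of 2.55 was above those of HK2 and PDK4 (2.35 each), while at 0.1 FPKM it was 2.58, below HK2 (2.60) and PDK4 (3.51). NDRG1, a stress-induced gene linked to growth arrest and differentiation (hg19 chr8:134249414-134314265), was at 37.0 FPKM in the young and 221 FPKM in the senescent library, 5.98-fold higher. Of its 15 isoforms at 1 FPKM or more, 14 were higher, 12 of them by 2-fold or more. Several of these, such as NDRG1-015 (0 and 7.19 FPKM) and NDRG1-003 (0.763 and 7.95 FPKM), reached 1 FPKM only in the senescent library. The filter fixed the direction of those isoforms. The authors' deposited table marks 6 NDRG1 transcripts higher, from a q of 0.000542 (NDRG1-008, 3.97 and 32.8 FPKM) to 0.0979 (NDRG1-017, listed at 0 and 11.1 FPKM). Transcripts of at least 1000 bases gave only 7.27 and 38.7 FPKM of the NDRG1 level (19.7% and 17.5%). Coding transcripts gave 20.4 and 117 FPKM, a log2 ratio of 2.47.

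CA12, a membrane carbonic anhydrase that handles acid outside the cell (hg19 chr15:63613577-63674360), was on the other side. It was at 8.02 FPKM in the young and 0.715 FPKM in the senescent library, 11.2-fold lower, on about 780 and 64 fragments. CA12-002, of 6380 bases, was listed at 4.44 and 0 FPKM (q = 0.0253 in the authors' deposited table), and CA12-003 was at 2.57 and 0.715 FPKM. The 6 transcripts assembled in CA12 introns summed to 9.22 and 0.133 FPKM. Lower intronic levels were not particular to CA12. Of the members with such transcripts, only GPI, HK2, PKM2 and SLC16A3 had a higher intronic level in the senescent library. PFKM (4.74 and 1.51 FPKM) and EGLN1 (4.07 and 1.56 FPKM) had a lower one, although the log2 ratios of their isoform sums were above 0.

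ADM, BNIP3, BNIP3L and MXI1 were within 2-fold and all above 0. ADM, which encodes the vasodilator adrenomedullin, was at 14.2 and 19.7 FPKM. Its isoforms differed in share: ADM-003 held 82.9% and 51.2% of the gene, at 11.8 and 10.1 FPKM, while ADM-001 was listed at 0 and 5.77 FPKM (q = 0.0841 in the authors' deposited table). BNIP3 (7.12 and 10.1 FPKM) and BNIP3L (128 and 149.7 FPKM) encode receptors for the removal of mitochondria, and BNIP3L held 94.7% and 93.7% of the pair. MXI1, an antagonist of MYC, was at 10.5 and 15.7 FPKM.

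**Figure D4:**
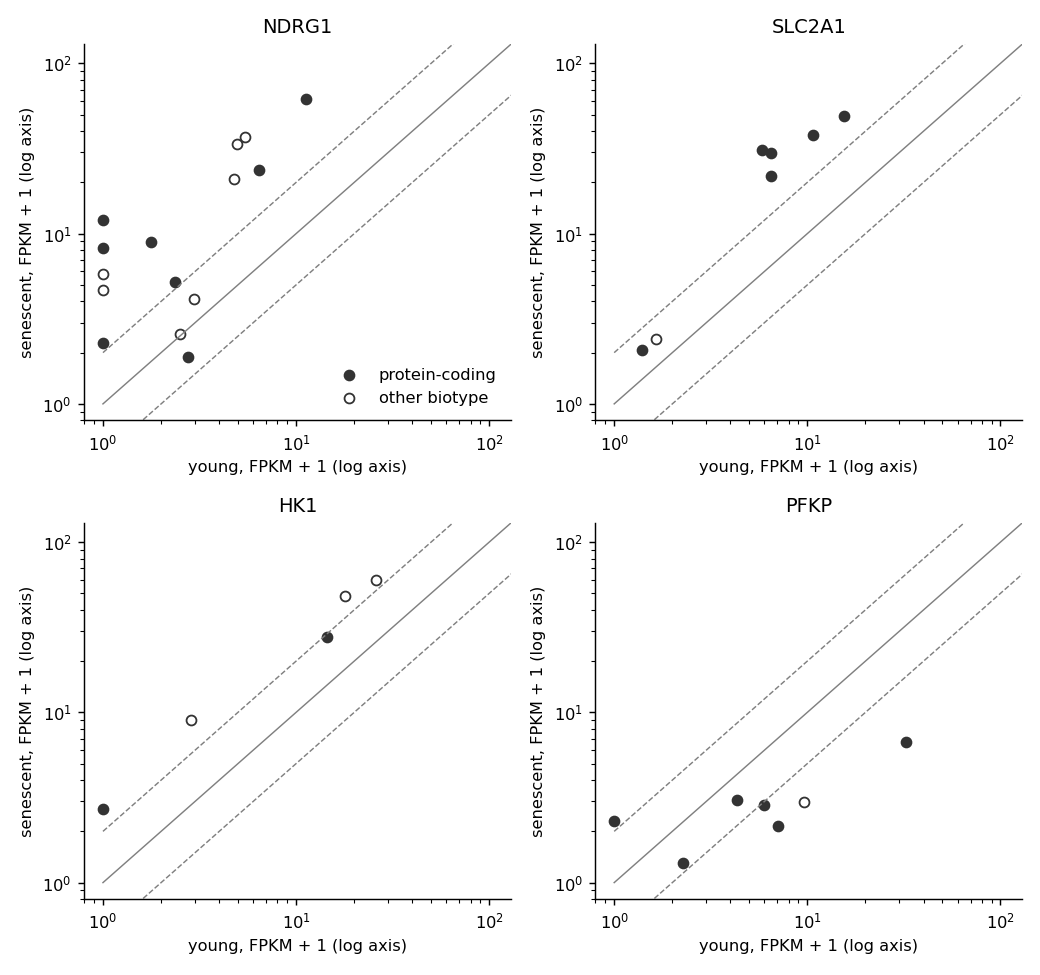
FPKM plus 1 of each isoform at 1 FPKM or more of NDRG1, SLC2A1, HK1 and PFKP, young against senescent (1 library each), on log axes; filled points are protein-coding, the solid line is equality and dashed lines mark 2-fold. In NDRG1, 14 of 15 isoforms lie above equality, in SLC2A1 7 of 7, in HK1 5 of 5 and in PFKP 1 of 7. Isoforms that reached 1 FPKM in only 1 library, such as HK1-201 (0 and 1.70 FPKM), lie on the side of that library by this choice.

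Of 30 other measured hypoxia targets, 8 were higher and 1 lower, with a median log2 ratio of 0.11. This list too was chosen with earlier results of these data known. The shares over all measured genes were 6.65% higher and 8.58% lower. The secreted genes ANGPTL4 (0.736 and 27.0 FPKM) and STC1 (38.4 and 332 FPKM) were among the higher ones, with the collagen hydroxylase PLOD2 (28.0 and 145 FPKM). TXNIP, which restrains glucose uptake, was at 24.9 and 121 FPKM, and PPP1R3C, which directs glycogen synthesis, at 8.91 and 38.1 FPKM. AK4, a mitochondrial adenylate kinase, was at 0.806 and 3.63 FPKM, and STC2, a secreted glycoprotein, at 75.0 and 180.4 FPKM. DDIT4, an inhibitor of mTORC1, was the lower one, at 4.20 and 1.07 FPKM. VEGFA, a standard target, was at 29.4 and 31.7 FPKM and one of the 21 targets within 2-fold.

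In neighbouring branches of sugar metabolism, 1 gene of each list was higher, beside the 6.65% of all measured genes, of which 8.58% were lower. Of 9 measured pentose phosphate genes 1 was higher, TALDO1 at 77.8 and 209 FPKM, with none lower and a median of -0.14, and PGD, the most abundant, was at 297 and 277 FPKM. Of 14 measured glycogen genes 1 was higher, the synthase GYS1 at 20.2 and 41.8 FPKM, and none lower (median 0.06). UGP2 (56.9 and 41.7 FPKM) and GYG1 (62.7 and 53.6 FPKM) were the most abundant of them. Of 7 measured paralogs of the glycolytic enzymes outside the members, BPGM, which makes 2,3-bisphosphoglycerate, was higher at 5.05 and 12.3 FPKM, with a median of 0.43 over the 7. ENO3 was at 165 and 189 FPKM, and ADPGK at 16.3 and 22.4 FPKM. How far short or noncoding isoforms gave the ENO3 level was not examined, so its rank beside ENO1 is not known.

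The calls of NDRG1, HK2, PDK4, SLC2A1, PFKP and CA12 held in all 13 alternatives in which their ratio was computed, and that of HK1 in 12 of 13; on transcripts of at least 1000 bases it fell just short of the threshold. ALDOC, within 2-fold here, was lower in 4 of 13.

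**Figure D5:**
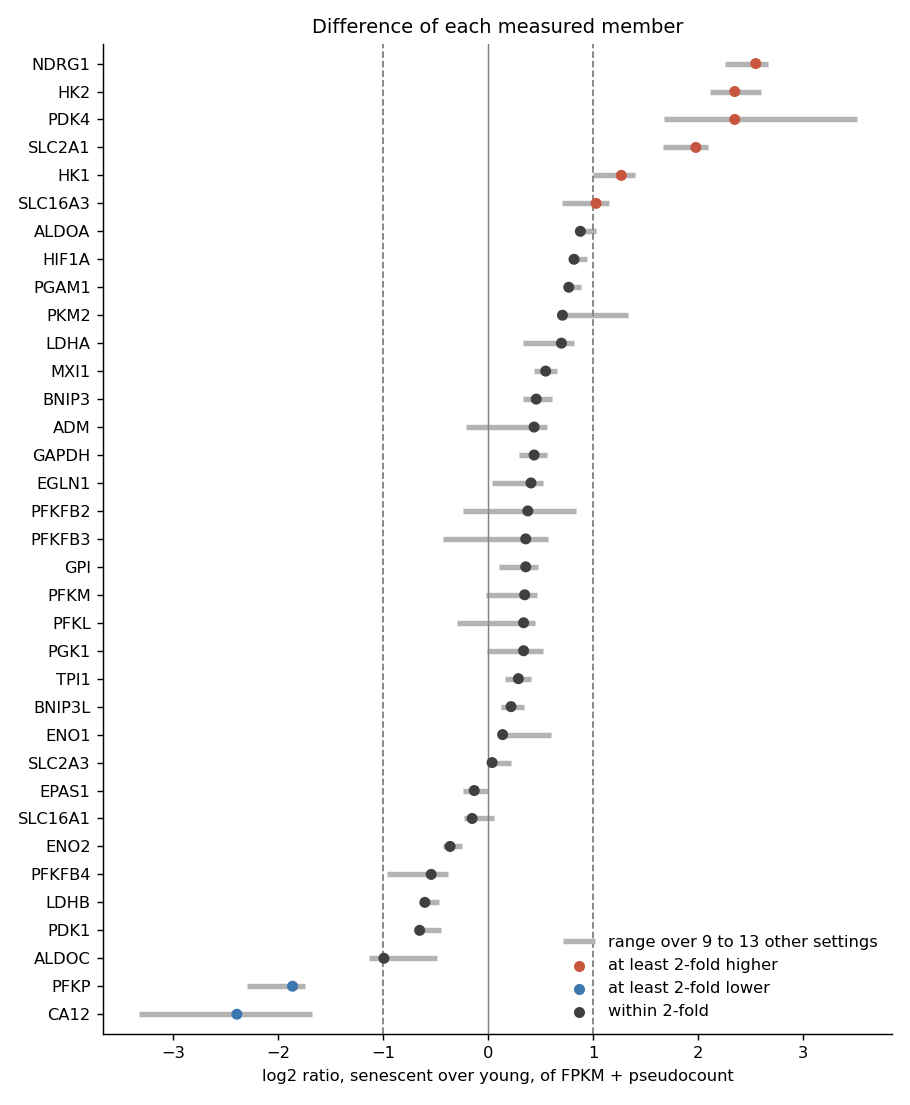
Log2 ratio of senescent over young FPKM plus pseudocount for each of the 35 measured members (points), with the lowest and highest value over 9 to 13 other settings as a grey bar; solid and dashed lines mark 0 and 2-fold. The bars of NDRG1, HK2, PDK4 and SLC2A1 stay right of 2-fold and those of PFKP and CA12 left of it, while those of HK1 and SLC16A3 reach it or cross it.

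Promoters of members past 2-fold are shown because hypoxia factors bind a short core in such DNA. RefSeq promoters (build GRCh38.p14, whereas the file is on hg19) were found for 33 of the 38 members, and none was given for BNIP3L, NDRG1, PFKFB2, SLC16A1 and SLC2A3. The 4 members with the largest ratio and a promoter are printed, as the 250 bases before the start of the gene, in the direction of the gene. Capitals mark ACGTG or its other strand, CACGT. A second core, GCGTG or CACGC, was searched but not marked.
CA12 (chr15:63381847-63382096, minus strand): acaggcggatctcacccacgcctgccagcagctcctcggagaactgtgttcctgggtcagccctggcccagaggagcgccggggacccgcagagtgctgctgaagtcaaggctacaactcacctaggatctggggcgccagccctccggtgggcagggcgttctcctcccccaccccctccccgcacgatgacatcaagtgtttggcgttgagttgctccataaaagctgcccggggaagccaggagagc
PDK4 (chr7:95596517-95596766, minus strand): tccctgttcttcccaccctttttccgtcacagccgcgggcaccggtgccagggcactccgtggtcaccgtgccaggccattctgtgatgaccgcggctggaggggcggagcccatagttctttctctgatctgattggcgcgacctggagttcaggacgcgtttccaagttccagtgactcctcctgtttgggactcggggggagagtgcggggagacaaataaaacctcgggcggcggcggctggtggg
HK2 (chr2:74833877-74834126, plus strand): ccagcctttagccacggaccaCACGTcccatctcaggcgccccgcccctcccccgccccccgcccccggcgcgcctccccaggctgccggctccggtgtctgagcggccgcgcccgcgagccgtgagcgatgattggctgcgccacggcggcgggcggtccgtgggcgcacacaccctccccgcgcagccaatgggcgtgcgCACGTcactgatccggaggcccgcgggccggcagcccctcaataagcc
SLC2A1 (chr1:42958869-42959118, minus strand): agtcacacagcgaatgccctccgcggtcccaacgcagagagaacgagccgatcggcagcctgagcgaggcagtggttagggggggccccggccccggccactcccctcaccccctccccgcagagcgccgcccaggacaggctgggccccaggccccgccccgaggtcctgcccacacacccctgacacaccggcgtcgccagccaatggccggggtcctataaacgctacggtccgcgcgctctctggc
HK2 held ACGTG at 2 places, and CA12, PDK4 and SLC2A1 at none in this window. HK2 and CA12 each held GCGTG at 1 place. ACGTG was present in 12 of 33 member promoters (36.4%) and in 18.7% of 27305 promoters of the same length, and GCGTG in 13 (39.4%) and in 31.9%. Where ACGTG lies in the palindrome CACGTG it was found on both strands. These matches describe the letters in this window only.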

How the data were processed

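Total RNA was sequenced from 1 young and 1 senescent culture of WI-38 cells. Per the submitters' processing notes, TopHat2 2.0.6, Cufflinks 2.0.2, Cuffdiff and hg19 were used. Their order, their settings, the gene models and whether reads kept their strand are not given in the sources used here. The deposited file holds 202463 transcripts with the authors' FPKM in a young and an old column, and a p-value and a q-value from the authors for each transcript, per the file headers. The old column was taken as the senescent sample, as the series holds 2 samples. A transcript is marked significant in the file at q-values up to 0.09997. Transcript length and class are per the file headers.

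FPKM was summed per gene name over transcripts that the file classes as a complete match, as a possible further isoform or as contained in one. The members have 377 such transcripts and 78 of other classes. Ratios used a pseudocount of 1 FPKM, a minimum of 1 FPKM in at least 1 library and a threshold of 2-fold, with no test (Python 3.11.15, pandas 2.3.3, numpy 2.4.6, scipy 1.17.1, matplotlib 3.10.9). The arithmetic of the calls and of the depth estimate was checked on simulated data built by the same rules, without noise between the libraries. Such data cannot show whether a call would repeat in another culture. The members and the gene lists were chosen with earlier results of these data known. All members are named, and from each list up to 8 genes past 2-fold by ratio plus the 2 of highest level. STC2, the 9th past 2-fold in its list, was named after its value was seen. Some genes that the rule takes from the lists are not reported here.

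Depth is not in the file. FPKM of low unnamed loci moved in steps of 1 fragment when 200 bases were taken off the length, within 0.05 of a whole number for 73.8% of 2685 values in the young and 78.0% of 2984 in the senescent library. One fragment on a transcript of 2000 bases was worth 0.0349 and 0.0375 FPKM. Fragments of members are estimates, so no count test was run, and intervals cover counting error only. Alternatives varied the pseudocount, the filter, the transcripts summed, the scaling between libraries and the threshold (12 planned, and 2 added after seeing the data: coding transcripts only, and transcripts of at least 1000 bases).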

Additional observations from a re-analysis of the deposited data

Results flagged for a closer look

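Some rows that carry a member's name lie outside its isoforms and had a higher level in the senescent library at 5 FPKM or more there. There is no control for such rows, and whether they hold the gene's own reads was not tested, since the strand of the reads is not given in the sources used here. A transcript of 590 bases opposite to LDHA exons was at 397 FPKM in the young and 693 FPKM in the senescent library, above the LDHA isoforms together. A pair of transcripts opposite to EPAS1 exons, of 611 and 1169 bases, were at 77.0 and 78.4 FPKM and at 58.5 and 64.6 FPKM. One opposite to SLC2A1 exons, of 345 bases, was at 0.953 and 9.97 FPKM (q = 0.0884, marked higher in the authors' deposited table). A transcript of 244 bases past the end of BNIP3 was at 5.62 and 18.1 FPKM. One of 705 bases within PKM2 introns was at 13.4 and 13.9 FPKM.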

How the results depend on the processing

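The count of higher members was between 5 and 7 and that of lower ones 2 or 3 under the 13 alternatives that kept the 2-fold threshold. At 1.5-fold they were 11 and 5 of 35, where 14.5% of all genes were higher and 20.3% lower. The median log2 ratio was 0.33 to 0.48, the highest with upper quartile scaling, which scales the senescent library up by 0.123 on the log2 scale; the median over all genes then was 0.00. The leading paralog differed between the libraries in 3 of 13 families: LDHA and LDHB, SLC16A1 and SLC16A3, HIF1A and EPAS1. These 3 held with complete matches only and with only transcripts that could be tested. With the highest isoform only, the lead differed in 1 other family, the phosphofructokinases (PFKP, then PFKM). With all rows of the gene name it differed in 1, SLC16A1 and SLC16A3. On coding transcripts, and on those of at least 1000 bases, it differed for SLC16A1 and SLC16A3 and for the phosphofructokinases. In both of these settings LDHA and LDHB, and HIF1A and EPAS1, had the same lead in both libraries. The cause was not tested. No called member changed direction. The log2 ratios of members moved by more than 0.25 in 34 of 448 cases, most often with the highest isoform. The alternatives that changed only the filter are among these cases, though no ratio could move in them. PDK4 ranged from 1.68 to 3.51 and CA12 from -3.32 to -1.67. PFKFB3 was at -0.43 with all rows, and PFKL (-0.29) and ADM (-0.21) were below 0 with the highest isoform. PFKFB4 was measured in 9 of 13 alternatives. No paired analysis was possible because each group has 1 library. No library could be left out for the same reason. Depth limits PDK3, EGLN3 and CA9, which rest on fewer than 10 estimated fragments.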

Other observations

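In PKM2 and in ENO1, 1 assembled isoform was far lower in the senescent library: that of 2018 bases in PKM2, at 80.7 and 1.86 FPKM, and that of 1746 bases in ENO1, at 26.7 and 0.593 FPKM. Both were chosen after their values were seen. Other assembled isoforms of these genes were not lower, such as those of 1088 bases in PKM2 (79.1 and 97.3 FPKM) and of 1314 bases in ENO1 (36.1 and 46.0 FPKM), and annotated isoforms of both genes went in either direction. In PFKFB3 the isoform PFKFB3-203, of 3856 bases, went from 20.4% to 2.65% of the gene. The EPAS1 transcript within introns was at 32.2 and 9.70 FPKM, while the EPAS1 isoforms were nearly equal.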
